A study of Mus with 35 samples.

Results

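Brain RNA of male mice that carry the R206W substitution in Hnrnph2 and received an antisense oligonucleotide (ASO) against Hnrnph2 was compared with brain RNA of wild-type (WT) mice that received a control ASO. Both groups were collected at 3 weeks of age. The treated mutant group had 3 libraries and the WT group 3, so 6 of the 35 libraries of the study entered the comparison, and 16507 of the 55573 rows of the deposited table reached a mean of 1 TPM (transcripts scaled to a fixed library total and corrected for length) over these 6 and were tested. The comparison addresses how far the brain transcriptome of treated mutants stood from that of WT mice that never had Hnrnph2 lowered. It mixes genotype and ASO by design, since the groups differ in both.

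The treated mutants were hemizygous R206W males with a single 30 µg dose of the Hnrnph2 ASO, delivered into the cerebral ventricles between postnatal days 2 and 4. The WT group were male littermates with the same dose of the control ASO at the same age. The animal names in their titles begin otherwise than those of the treated mutants. A litter shared between the compared libraries is therefore not shown. Both groups were on the C57BL/6J strain. For context, 2 further groups of the cohort are given where they help to place a value: R206W with the control ASO and WT with the Hnrnph2 ASO, with 3 libraries each. A P209L cohort of the same age, with 2 treated mutant libraries and 3 control WT libraries of its own, shares no library with this comparison.

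HNRNPH2 belongs to the hnRNP H/F family, whose members bind G-rich RNA and regulate splicing, and its gene is X-linked. Substitutions such as R206W and P209L lie in its nuclear localization signal, the stretch that transportins recognise to carry the protein into the nucleus, and in humans such variants cause a neurodevelopmental disorder. An ASO of the kind used to lower a transcript pairs with the RNA and recruits RNase H, which cuts it. The ASO is directed at Hnrnph2 RNA as such, and the close paralog Hnrnph1 is known to rise when Hnrnph2 is lost in mice.

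In the 12 libraries of the R206W cohort, 16246 to 16585 genes reached 1 TPM. The 50 top genes of a library made up 27.3% to 30.9% of its TPM, and mitochondrial transcripts 12.2% to 14.5%. TPM keeps no read totals, so the depth behind each value is unknown. The labels name brain, whole brain and dissected cortex in different fields. Genes of cerebellar granule cells were abundant in all 12 libraries, for example Cbln3, a cerebellin of granule cells, at 77.4, 98.6 and 92.6 TPM in treated R206W and 127, 145 and 101 TPM in control WT. The titles also carry an animal-name stem. All 3 control WT libraries shared 1 stem, and the treated R206W libraries carried 2 others, so stem and group cannot be told apart in this comparison. Each title carries a different animal name, though no label states outright that each library is a separate animal. The p-values measure the spread between these libraries. Among libraries outside the comparison, replicate 3 of R206W with the control ASO stood apart from its group in interferon genes. It enters the comparison only through the shared estimate of the spread.

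Hnrnph2 itself was strongly reduced in the treated mutants. Hnrnph2 (mm10, X:134601179 to 134607060) had 20.7, 23.9 and 19.5 TPM in treated R206W, against 117, 97.8 and 94.5 TPM in control WT. The groups did not overlap, and every treated library held less than the lowest WT library by a wide margin. The mean was 21.3 ± 2.32 TPM in treated R206W and 103 ± 12.1 TPM in control WT (SD, n = 3 each), 79.3% lower. The log2 fold change of (TPM + 1) was -2.22 (SE 0.10, 95% interval -2.43 to -2.0), with an adjusted p of 1.03e-06 from limma fitted to the cohort's 12 libraries. An exact two-sided permutation test of the mean gave p = 0.1, the smallest that 3 libraries against 3 allow. The transcript level in R206W given the control ASO was 102 ± 7.89 TPM, and in WT given the Hnrnph2 ASO 24.9 ± 1.69 TPM (SD, n = 3 each).

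The relatives of Hnrnph2 did not pass the test. Hnrnph1 (11:50375257 to 50386528), its closest paralog, had 421, 385 and 367 TPM in treated R206W and 348, 363 and 314 TPM in control WT. The groups did not overlap, with a log2 fold change of 0.19 (SE 0.07, 95% interval 0.04 to 0.35) and an adjusted p of 0.304. The exact permutation test again gave 0.1, the least that this design can reach. Hnrnph3, which acts in splicing, had a log2 fold change of -0.07 (95% interval -0.30 to 0.17). Hnrnpf, the other core member of the family, had -0.10 (-0.27 to 0.07). Grsf1, a related protein of mitochondrial RNA granules, had 0.03 (-0.12 to 0.19). In the P209L cohort at 3 weeks Hnrnph1 had 329 and 330 TPM in treated P209L and 253, 242 and 246 TPM in control WT, with a log2 fold change of 0.42 (adjusted p 0.0947). These are close paralogs, and how reads common to them were divided was not checked. The nearest genes to Hnrnph2 on the X chromosome did not pass the test either. Gla, which encodes alpha-galactosidase A and lies 173 bp from Hnrnph2, had 7.65, 7.30 and 7.57 TPM in treated R206W and 7.30, 6.80 and 7.07 TPM in control WT (log2 fold change 0.08, adjusted p 0.727). Of 17 tested genes listed around Hnrnph2, 0 had an unadjusted p under 0.05 in either direction.

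Beside Hnrnph1 on chromosome 11, at a distance of 2757 bp, lies Rufy1 (50389286 to 50431274), which encodes an effector of Rab GTPases on endosomes. Rufy1 had 14.7, 14.9 and 13.3 TPM in treated R206W and 20.9, 19.9 and 19.4 TPM in control WT. Every treated library was below every WT library, yet the gene did not pass the adjustment (log2 fold change -0.46, SE 0.08, adjusted p 0.126). It was called in a fit without R206W control replicate 3 (adjusted p 0.0286) and in a fit of all 35 libraries (0.00959). WT mice with the Hnrnph2 ASO were at the level of the treated mutants, with 15.4, 14 and 15.2 TPM. In R206W mice the Hnrnph2 ASO against the control ASO did lower it past the threshold (-0.54, adjusted p 0.0326), with 19.2, 20.7 and 23.8 TPM in R206W with the control ASO. The P209L cohort had 12.5 and 14.3 TPM in treated P209L and 18.9, 20.4 and 21.8 TPM in control WT (-0.57, adjusted p 0.104).

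**Figure D1:**
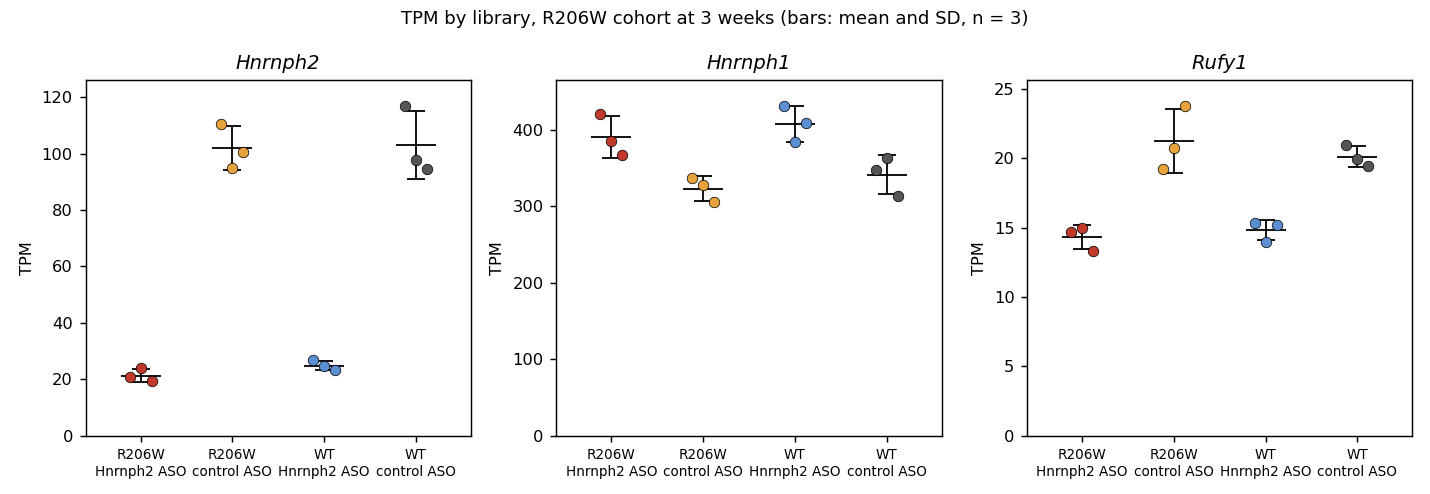
TPM (vertical axis) of Hnrnph2, its paralog Hnrnph1 and Rufy1, which lies beside Hnrnph1, in each library of the R206W cohort at 3 weeks; points are libraries and bars are the mean and SD of n = 3. Treated R206W libraries hold 19.5 to 23.9 TPM of Hnrnph2, against 94.5 to 117 TPM in control WT, while Hnrnph1 is higher and Rufy1 lower in both groups given the Hnrnph2 ASO.

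Across all genes, few differences between treated mutants and control WT mice passed the test. limma called 3 of 16507 genes at an adjusted p under 0.05 (0.0182%), with 1 higher (0.00606%) and 2 lower (0.0121%). These were Hnrnph2 and 2 unnamed gene models. Gm29514 fell, with 2.86, 2.96 and 3.30 TPM in treated R206W and 6.05, 6.30 and 5.71 TPM in control WT (log2 fold change -0.80, SE 0.10, adjusted p 0.0284). Gm45716 rose, with 8.33, 9.06 and 6.85 TPM in treated R206W and 4.23, 3.70 and 3.49 TPM in control WT (0.91, SE 0.11, adjusted p 0.0284). In both cases the 3 libraries of each group did not overlap. The middle 90% of log2 fold changes lay between -0.28 and 0.31 and the median was -0.00089. At an unadjusted p under 0.05, 1054 genes were higher (6.39%) and 1028 lower (6.23%). The groups did not overlap in 1470 genes that were higher (8.91%) and 1347 that were lower (8.16%).

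The count of calls depended on which other libraries set the spread. With only the 6 compared libraries in the fit it was 15, and without R206W control replicate 3, which is not one of the 6, it was 64, with 40 higher and 24 lower. The second of these fits was chosen after seeing the data, and with all 35 libraries in the fit the count was 84. The other alternatives tried called 1 to 6 genes, apart from 238 with the replicate number as a block. With the same 12-library fit, the parts of the comparison gave 21 genes higher (0.127%) and 1 lower (0.00606%) for R206W against WT with the control ASO. The Hnrnph2 ASO in R206W gave 0 higher (0%) and 16 lower (0.0969%), and the same ASO in WT gave 1 lower (0.00606%), which was Hnrnph2. These contrasts share libraries with each other and with the comparison described here.

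**Figure D2:**
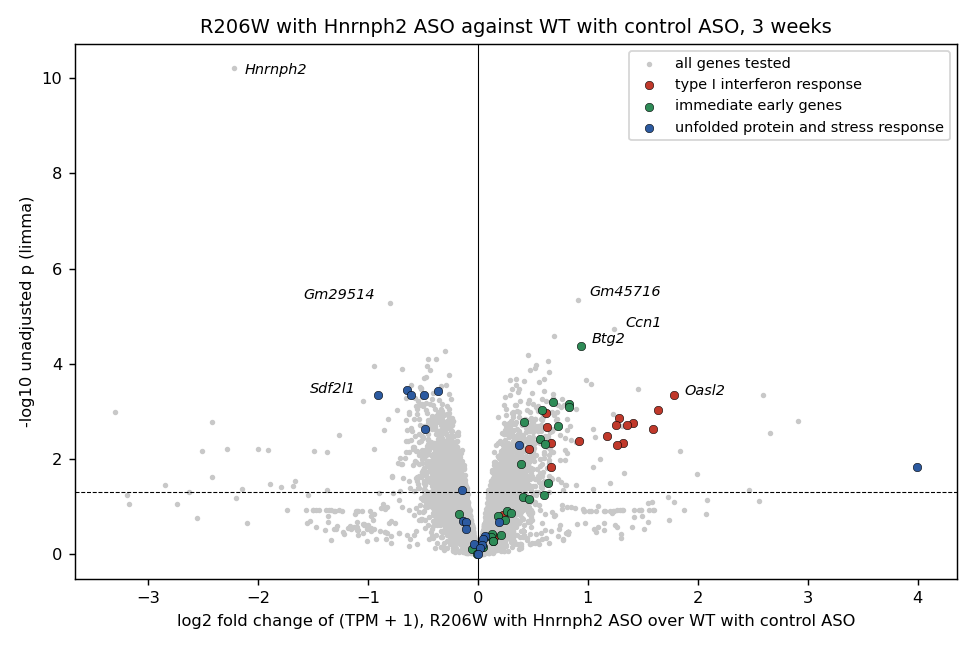
Each point is a gene tested: log2 fold change of (TPM + 1) in R206W with the Hnrnph2 ASO over WT with the control ASO (horizontal axis) against -log10 of limma's unadjusted p (vertical axis; the dashed line marks 0.05), with 3 gene lists coloured. Hnrnph2 stands alone at the top left, interferon and immediate early genes lie to the right of 0, and the blue point at the far right is a second row named Ddit3 that is listed at 0 in 2 of the 3 control WT libraries.

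Genes that the related P209L substitution raises were then followed, since the P209L libraries are not part of this comparison. With the control ASO, 27 genes were called higher in P209L than WT at 8 weeks (0.164%) and 22 at 3 weeks (0.134%), and 13 of them at both ages. In R206W with the control ASO all 13 were above control WT and 9 of the 13 were called, with a median log2 fold change of 0.50. In treated R206W against control WT, 0 of the 13 were called, 7 lay above 0 and 6 below, and the median was 0.0045, with a range of -0.20 to 0.36. The 95% interval included 0 for 12 of the 13. By library, 5 of the 13 lay above all control WT libraries (8.91% of all genes did) and 1 below (8.16%), and 7 overlapped. All 13 lay below R206W with the control ASO without overlap (5.72% of all genes did), and 6 of them fell past the threshold in that contrast.

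Ppp1r9b (11:94991212 to 95006898) encodes spinophilin, which anchors protein phosphatase 1 in dendritic spines. It had 281, 286 and 278 TPM in treated R206W, 496, 491 and 627 TPM in R206W with the control ASO and 267, 271 and 255 TPM in control WT. Treated mutants were thus close to WT, with a log2 fold change of 0.09 (SE 0.08, 95% interval -0.08 to 0.27). Shank1 (7:44308916 to 44360094), which scaffolds receptors at excitatory synapses, had 102, 98.2 and 84.0 TPM in treated R206W, 164, 153 and 167 TPM in R206W with the control ASO and 110, 106 and 95.8 TPM in control WT (treated over control WT -0.13, 95% interval -0.30 to 0.04). Its relatives Shank2 (-0.18, adjusted p 0.519) and Shank3 (-0.15, adjusted p 0.528) were not called either.

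Ddn (15:98803782 to 98807925) was the 1 of the 13 whose interval lay clear of 0. It encodes dendrin, a postsynaptic protein whose RNA is carried into dendrites. Ddn had 268, 254 and 254 TPM in treated R206W, 518, 512 and 669 TPM in R206W with the control ASO, 236, 208 and 228 TPM in WT with the Hnrnph2 ASO and 215, 187 and 210 TPM in control WT. Treated mutants stayed above every control WT library, by a log2 fold change of 0.34 (SE 0.10, 95% interval 0.13 to 0.55, adjusted p 0.193), and below every R206W library with the control ASO (-1.12, adjusted p 0.000451). In the P209L cohort at 3 weeks Ddn had 330 and 395 TPM in treated P209L and 297, 295 and 305 TPM in control WT (0.27, adjusted p 0.304).

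Nuclear import was represented by Tnpo2 (8:85036873 to 85057585), which encodes transportin-2, a receptor for signals of the kind that R206W alters. It had 63.7, 60.8 and 60.0 TPM in treated R206W, 105, 97.7 and 99.2 TPM in R206W with the control ASO and 64.2, 60.5 and 63.9 TPM in control WT. The treated and WT groups overlapped, with a log2 fold change of -0.03 (SE 0.05, 95% interval -0.14 to 0.08). Its paralog Tnpo1 (transportin-1) overlapped between the groups too, at 20.1, 18.7 and 16.5 TPM in treated R206W and 20.6, 16.8 and 15.9 TPM in control WT (0.05, adjusted p 0.895). Of 22 import receptors and Ran-cycle genes tested, 0 were called in treated R206W against control WT, and the median was -0.03.

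The other 9 covered several roles, and none was called. Brsk1, a kinase that helps to polarise neurons, had 184, 183 and 192 TPM in treated R206W and 171, 164 and 179 TPM in control WT (log2 fold change 0.12, 95% interval -0.04 to 0.28). Ppfia3, the active-zone protein liprin-alpha-3, had -0.01 (-0.20 to 0.19), and Ctnna2, the neuronal alpha-catenin, 0.00 (-0.19 to 0.20). Fbxl19, which binds unmethylated CpG islands, had 47.3, 50.7 and 45.4 TPM in treated R206W and 51.8, 52.0 and 51.1 TPM in control WT, so all treated libraries were slightly below (-0.11, 95% interval -0.22 to 0.00). Dzip1, a ciliary protein of Hedgehog signalling, had -0.20 (-0.40 to 0.00). Foxo4, a forkhead transcription factor, had 0.08 (-0.08 to 0.23), and Ilrun, a regulator of inflammatory and antiviral signalling, 0.10 (-0.10 to 0.29). Marf1, a ribonuclease known from oocytes, had -0.05 (-0.25 to 0.15). The unnamed Gm31166, with 2.65, 2.28 and 2.45 TPM in treated R206W and 1.72, 2.15 and 1.30 TPM in control WT, had 0.36 (-0.04 to 0.75).

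**Figure D3:**
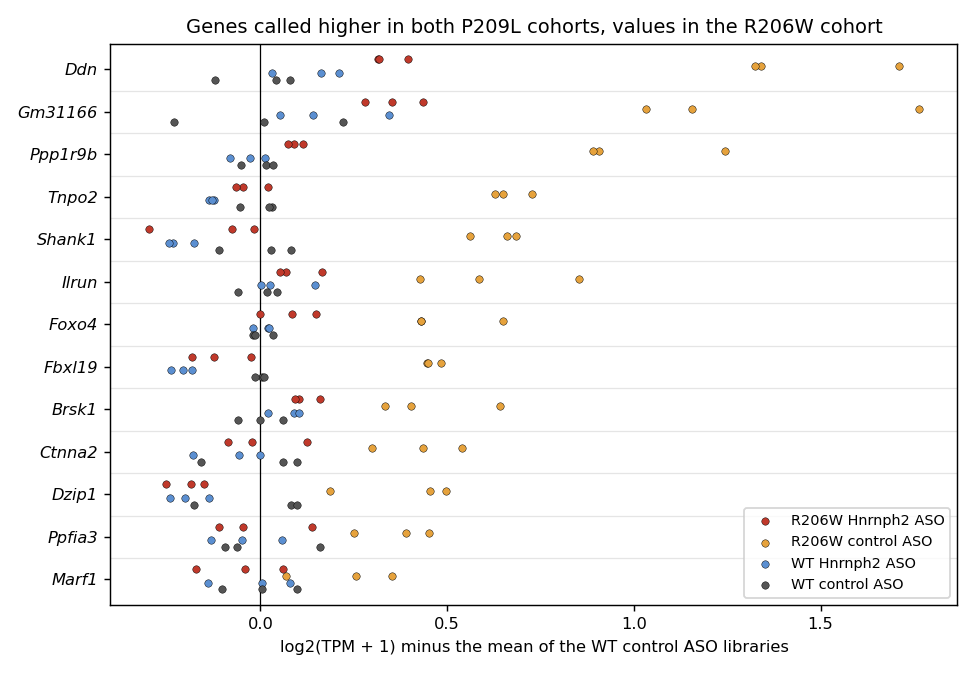
Values of the 13 genes called higher in both P209L cohorts, as log2(TPM + 1) of each R206W-cohort library minus the mean of the control WT libraries (horizontal axis); each point is a library and each gene has 4 rows of 3 points, with treated R206W on top. Treated R206W points sit around 0, next to both WT groups, while R206W with the control ASO lies to the right, furthest for Ddn and Ppp1r9b.

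Genes called higher in R206W with the control ASO, in the same cohort, numbered 21, of which 12 were not among the 13. That contrast uses the same control WT libraries and the same R206W libraries with the control ASO, so the values are given side by side only. In treated R206W 0 of these 12 were called, and their median log2 fold change was 0.09, beside 0.44 in R206W with the control ASO. The interval of the log2 fold change included 0 for 5 of the 12, against 12 of the 13. At an unadjusted p under 0.05, 5 of the 12 were higher (6.39% of all genes) and 2 lower (6.23%). By library, 5 lay above all control WT libraries (8.91%) and 2 below (8.16%), and 5 overlapped. All 12 lay below R206W with the control ASO without overlap (5.72%). They were chosen as higher in those same libraries, so this count was largely set by the choice. Eml2, a microtubule-associated protein, was the furthest from WT among them, with 155, 151 and 154 TPM in treated R206W, 163, 156 and 182 TPM in R206W with the control ASO and 119, 118 and 126 TPM in control WT (treated over control WT 0.34, adjusted p 0.14). Without R206W control replicate 3 Eml2 was called (adjusted p 0.0364). Adra1b, an alpha-1 adrenergic receptor, had 13.8, 10.6 and 13.1 TPM in treated R206W, 20.7, 16.8 and 22.8 TPM in R206W with the control ASO and 9.72, 8.74 and 11.3 TPM in control WT (0.31, adjusted p 0.354). By contrast Inpp5f, a phosphoinositide phosphatase, had 106, 102 and 101 TPM in treated R206W, 142, 139 and 142 TPM in R206W with the control ASO and 108, 102 and 105 TPM in control WT (-0.02, adjusted p 0.866). Atf6b, a stress transcription factor of the endoplasmic reticulum, lay slightly below WT, with 42.6, 44.8 and 44.1 TPM in treated R206W and 48.7, 49.2 and 49.3 TPM in control WT (-0.16, adjusted p 0.251).

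The type I interferon response was the list whose median stood furthest from that of all genes. Interferons made on sensing foreign or misplaced nucleic acid signal to the nucleus of the cell to switch on a large set of antiviral genes. Of 18 tested genes 18 lay above 0 (49.7% of all genes did), with a median log2 fold change of 1.21, 16 were higher at an unadjusted p under 0.05 (6.39% of all genes), and in 16 the treated libraries lay above all WT libraries (8.91%). Yet limma called 0 of the 18 with the 12-library fit. It called 6 with only the 6 compared libraries in the fit, 6 with all 35 libraries and 11 without R206W control replicate 3. In every other alternative fit it called 0, among them the fits without any other 1 library. R206W control replicate 3 was itself high in these genes, so leaving it out narrows their spread. That fit was chosen after seeing the data.

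Oasl2, an antiviral oligoadenylate synthetase-like protein, had 16.8, 16.5 and 12.9 TPM in treated R206W and 3.73, 3.22 and 4.30 TPM in control WT (log2 fold change 1.78, SE 0.37, adjusted p 0.142). Irf7, a transcription factor that amplifies interferon production, had 9.47, 12.5 and 8.98 TPM in treated R206W and 2.63, 2.05 and 3.22 TPM in control WT (1.64, adjusted p 0.147). Xaf1, an interferon-induced regulator of cell death, had 12.8, 13.7 and 8.90 TPM in treated R206W and 3.37, 4.73 and 4.57 TPM in control WT (1.28, adjusted p 0.148). All 3 treated libraries were thus well above all WT libraries. Ddx58, which encodes the RNA sensor RIG-I, had 6.30, 5.82 and 5.35 TPM in treated R206W and 4.00, 2.99 and 3.36 TPM in control WT (0.62, adjusted p 0.147). Ifit3, chosen after its values were seen, had 25.8, 29.2 and 22.6 TPM in treated R206W and 7.67, 6.76 and 9.39 TPM in control WT (1.59, adjusted p 0.158). Irf9 (0.22, adjusted p 0.565) and Stat2 (0.15, adjusted p 0.788), which carry the signal of the interferon receptor, overlapped between the groups.

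The same genes were not uniformly high in the groups that share the ASO or the genotype. Summed over the 18 genes, treated R206W libraries held 339, 339.5 and 253 TPM, R206W with the control ASO 143, 189 and 359 TPM, WT with the Hnrnph2 ASO 174, 217 and 152 TPM and control WT 151, 156 and 160 TPM. R206W control replicate 3 was thus above every treated library, while the other 2 replicates of its group were between 143 and 189. Those 2 carried the same animal-name stem as the control WT libraries, and replicate 3 a stem found in no other library. The part of the stem in these values was not tested. The WT libraries with the Hnrnph2 ASO carried the same animal-name stems as the treated mutants, and 15 of the 18 genes were higher in treated R206W than in them at an unadjusted p under 0.05 (2.35% of all genes were). None passed the adjustment there, where 0 of all genes were called and the smallest adjusted p was 1. Of 14 markers of blood leukocytes 4 reached a mean of 1 TPM, and these summed to 10.3, 7.76 and 6.88 TPM in treated R206W and 10.2, 8.01 and 8.20 TPM in control WT. In the P209L cohort at 3 weeks, 19 of 19 genes lay above 0 with a median of 1.12, but the 2 treated libraries were unequal. There Ifit3 had 16.9 and 62.8 TPM in treated P209L and 5.69, 6.87 and 9.87 TPM in control WT.

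Genes of MHC class I antigen presentation, which interferon also induces, ran in the same direction. Of 11 tested genes 0 were called, and the median was 0.47. With an unadjusted p under 0.05, 8 were higher (6.39% of all genes) and 2 lower (6.23%). Calls numbered 4 without R206W control replicate 3 (B2m, H2-K1 and Psmb8 higher, Calr lower), 1 with only the 6 libraries (H2-K1) and 3 with all 35 (Psmb8 and Tap2 higher, Calr lower). The list median relative to control WT was 0.43 in R206W control replicate 3, against -0.03 and 0.19 in replicates 1 and 2. That fit was chosen after seeing the data, and the part of this library in each of the 4 calls was not tested. H2-K1, a classical class I heavy chain, had 58.3, 57.3 and 57.5 TPM in treated R206W and 35.3, 36.9 and 37.9 TPM in control WT (0.64, adjusted p 0.147). Psmb8, an immunoproteasome subunit, had 6.49, 6.84 and 5.38 TPM in treated R206W and 2.84, 3.30 and 3.66 TPM in control WT (0.76, adjusted p 0.146). B2m, the class I light chain, had 171, 156 and 171 TPM in treated R206W and 117, 114 and 122 TPM in control WT (0.49, adjusted p 0.187). The 2 lower genes, Calr (-0.51) and Pdia3 (-0.26), encode chaperones of the endoplasmic reticulum. Ifit3 and H2-K1 belong to families of similar genes, so reads may be shared between copies.

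**Figure D4:**
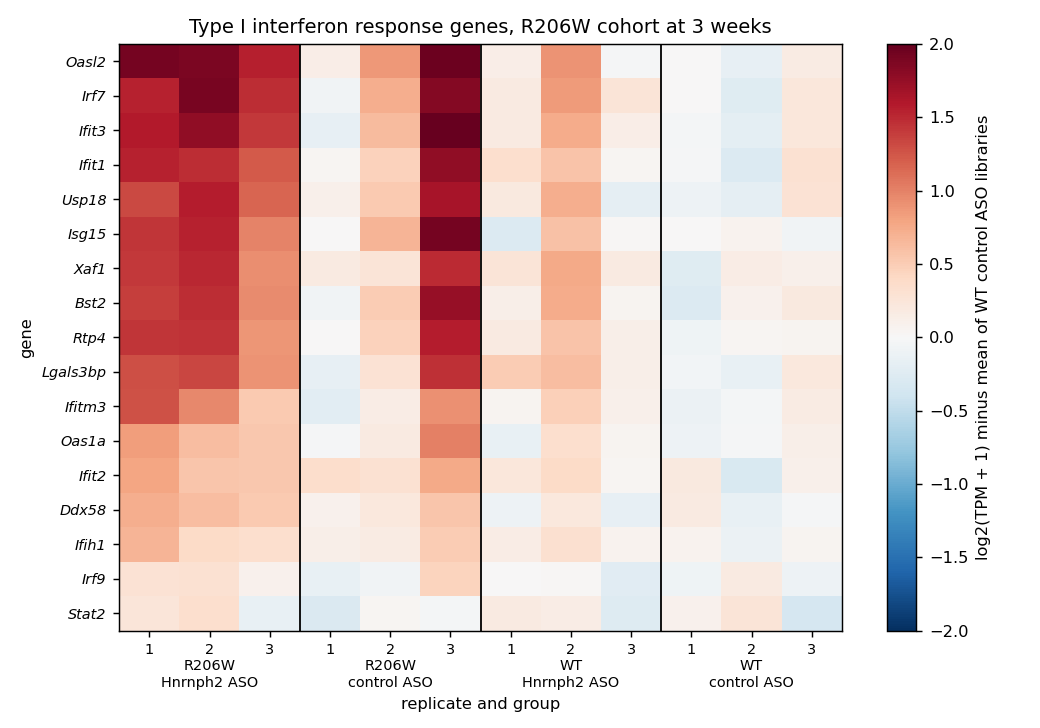
Log2(TPM + 1) of 17 of the 18 tested interferon response genes (rows) in the 12 libraries of the R206W cohort (columns), minus the mean of the control WT libraries; red is higher and blue lower. The 3 treated R206W libraries are red for nearly all genes, R206W with the control ASO is red in replicate 3 above all, and both WT groups are pale except for replicate 2 of WT with the Hnrnph2 ASO.

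Immediate early genes, which neurons transcribe within minutes of activity or growth-factor signals, tended higher. Of 28 tested genes 25 lay above 0, the median was 0.35, and 0 were called. Those higher at an unadjusted p under 0.05 numbered 11 (6.39% of all genes) and those lower 0 (6.23%). Btg2, Ier2 and Junb were called without R206W control replicate 3, Btg2 with only the 6 libraries and 0 of the 28 with all 35. Btg2, an antiproliferative early gene, had 32.8, 44.4 and 39.2 TPM in treated R206W and 20.8, 19.4 and 18.8 TPM in control WT (log2 fold change 0.94, SE 0.15, adjusted p 0.118). Npas4, an activity-dependent transcription factor of neurons, had 32.3, 41.7 and 31.8 TPM in treated R206W and 22.9, 17.7 and 17.7 TPM in control WT (0.83, adjusted p 0.146). Junb, an AP-1 subunit, had 118, 130 and 112 TPM in treated R206W and 77.4, 56.5 and 68.7 TPM in control WT (0.83, adjusted p 0.147). The groups did not overlap in any of these, whereas Bdnf (-0.01) and Homer1 (-0.06), which also respond to activity, overlapped.

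Outside the list, Ccn1 had the smallest p among named higher genes. It encodes a matrix protein that is itself switched on early by growth signals. Ccn1 had 20.8, 22.9 and 18.7 TPM in treated R206W, 11.2, 8.64 and 15.7 TPM in R206W with the control ASO, 15.4, 12.1 and 11.1 TPM in WT with the Hnrnph2 ASO and 8.99, 8.48 and 7.20 TPM in control WT (treated over control WT 1.24, SE 0.18, adjusted p 0.0747). Ccn1 was called without R206W control replicate 3 (adjusted p 0.0216), with only the 6 libraries (0.0142) and with all 35 (0.0175). Some other fits did not call it. Higher calls numbered 0, so Ccn1 was not called, with no filter on low values and with the cerebellar covariate. The same held without treated R206W replicate 2 and without control WT replicate 2 or 3. It also held without R206W control replicate 1 and without replicate 1, 2 or 3 of WT with the Hnrnph2 ASO. Some further alternatives called it too, as listed under the dependence on processing. The summed level of the 28 immediate early genes was 1688, 1723 and 1460 TPM in treated R206W, 1365, 1010 and 1632 TPM in R206W with the control ASO, 1533, 1407 and 1387 TPM in WT with the Hnrnph2 ASO and 1402, 1106 and 1161 TPM in control WT. The time from handling to freezing is not given in the sources used here, and its part in these values was not tested.

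Several chaperones of the endoplasmic reticulum were lower in treated mutants, though none passed the adjustment in the fit of 12 libraries. Of 19 rows of the unfolded protein and integrated stress response list, 0 were called, and the median was -0.11. An unadjusted p under 0.05 was reached by 7 lower rows (6.23% of all genes) and 2 higher rows (6.39%). Lower calls numbered 4 without R206W control replicate 3 (Hspa5, Manf, Sdf2l1 and Xbp1), 6 with all 35 libraries (these 4 with Creld2 and Hsp90b1) and 0 with only the 6 libraries. Under the other alternatives they numbered 0, apart from 4 with the replicate number as a block. Hspa5, which encodes the master chaperone BiP, had 188, 164 and 168 TPM in treated R206W and 275, 303 and 242 TPM in control WT (log2 fold change -0.65, SE 0.13, adjusted p 0.142). Sdf2l1, a partner of BiP, had 11.7, 10.2 and 12.4 TPM in treated R206W and 19.7, 28.7 and 19.4 TPM in control WT (-0.91, adjusted p 0.142). Xbp1, the transcription factor of this response, had 68.8, 69.3 and 65.3 TPM in treated R206W and 94.7, 105 and 87.6 TPM in control WT (-0.49, adjusted p 0.142). The groups did not overlap in these 3 genes. WT mice with the Hnrnph2 ASO were near the treated mutants, with Hspa5 at 170, 197 and 191 TPM, and R206W with the control ASO had 291, 228 and 193 TPM. In the P209L cohort Hspa5 had 200.2 and 167 TPM in treated P209L and 198, 211 and 184 TPM in control WT (-0.11). Asns, asparagine synthetase, is a target of the integrated stress branch and overlapped between the groups, with 73.7, 70.2 and 75.9 TPM in treated R206W and 77.2, 72.4 and 70.4 TPM in control WT (adjusted p 0.997).

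Cytosolic heat shock genes leaned the same way, with 0 of 16 called and a median of -0.16. Lower at an unadjusted p under 0.05 were 7 (6.23% of all genes), and 1 was higher (6.39%). With all 35 libraries 2 were called lower, Hsph1 and Hspa8, and without R206W control replicate 3 or with only the 6 libraries 0. Hsph1, a nucleotide-exchange factor of Hsp70, had 109, 94.9 and 106 TPM in treated R206W and 148, 161 and 138 TPM in control WT (-0.52, adjusted p 0.146). Hspa8, the constitutive Hsp70, had 1405, 1288 and 1366 TPM in treated R206W and 1597, 1659 and 1537 TPM in control WT (-0.24, adjusted p 0.148). Fkbp4, a co-chaperone of Hsp90, had the smallest p among named lower genes after Hnrnph2, with 98.0, 96.4 and 100.4 TPM in treated R206W and 120, 128 and 117 TPM in control WT (-0.30, SE 0.05, adjusted p 0.124).

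Other genes at the edge of the test had varied roles. Snhg3, a long noncoding host of small nucleolar RNAs, had 45.7, 51.3 and 45.6 TPM in treated R206W and 33.2, 33.6 and 36.2 TPM in control WT (log2 fold change 0.46, adjusted p 0.126). Dtd2, a deacylase that clears mischarged transfer RNA, had 10.6, 12 and 11.7 TPM in treated R206W and 7.35, 7.02 and 8.67 TPM in control WT (0.52, adjusted p 0.126). Cd99l2, an adhesion protein encoded on the X chromosome, had 36.7, 38.3 and 40.5 TPM in treated R206W and 48.5, 50.9 and 51.4 TPM in control WT (-0.38, adjusted p 0.126). Lrrc29 (0.64) and Tmem254b (-0.45), which has near-identical copies, also had an adjusted p of 0.126. In each of these genes the groups did not overlap. All 5, and Fkbp4, were called without R206W control replicate 3, Dtd2, Cd99l2, Tmem254b and Fkbp4 with all 35 libraries, and none of the 6 with only the 6 compared libraries.

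Markers of glia had medians between -0.22 and 0.17, and 0 genes of any glial list were called in the fit of 12 libraries. In the other fits Gpr17 was called without R206W control replicate 3 (adjusted p 0.0248) and with only the 6 libraries (0.0494), Cxcl10 without that replicate (0.0248) and Cd68 with all 35 libraries (0.0194). In bulk RNA, fewer cells of a type and less RNA per cell cannot be told apart. Of 17 microglial markers 8 were higher (6.39% of all genes) and 0 lower (6.23%) at an unadjusted p under 0.05, with a median of 0.13. They included the receptor Trem2, with 16.5, 18.4 and 17.8 TPM in treated R206W and 11, 13.2 and 12.7 TPM in control WT (0.48, adjusted p 0.148), and its adaptor Tyrobp (0.50, adjusted p 0.165). The lysosomal gene Cd68 of activated microglia had 17.1, 18.7 and 17.1 TPM in treated R206W and 10.6, 11.2 and 12.2 TPM in control WT (0.60, adjusted p 0.14). Of 15 tested reactive astrocyte genes 7 were higher and 0 lower at an unadjusted p under 0.05, with a median of 0.17. Treated replicate 1 stood furthest from control WT, with a list median of 0.46, against 0.08 and 0.05 in replicates 2 and 3. The chemokine Cxcl10, an interferon target, had 3.27, 3.71 and 1.77 TPM in treated R206W and 0.39, 0.34 and 0.44 TPM in control WT (1.46, adjusted p 0.142). Serpina3n, a protease inhibitor of reactive astrocytes, had 20.1, 17.6 and 15.4 TPM in treated R206W and 11.6, 12.4 and 12.3 TPM in control WT (0.51, adjusted p 0.231). Markers of resting astrocytes had a median of 0.00, with 7 of 14 above 0.

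Oligodendrocyte genes leaned lower. Of 20 myelin genes 18 lay below 0 (50.3% of all genes did), with 8 lower at an unadjusted p under 0.05 (6.23%) and a median of -0.22. Replicate 3 did not share this, as the list median relative to control WT was -0.28, -0.38 and 0.01 in the 3 treated libraries. Ugt8a, which makes the myelin lipid galactosylceramide, had 84.7, 78.7 and 116 TPM in treated R206W and 141, 137 and 133 TPM in control WT (-0.58, adjusted p 0.176). Replicate 3 was again the highest of the treated libraries. Gpr17, a receptor of precursors that are committed to differentiate, had 58.9, 54.6 and 56.1 TPM in treated R206W and 81.9, 77.8 and 81.9 TPM in control WT (-0.50, adjusted p 0.146). Of 18 genes of cholesterol synthesis, which myelination draws on, 17 lay below 0 and 8 were lower at an unadjusted p under 0.05, with a median of -0.23. By library the list median was -0.32, -0.45 and 0.01 in treated R206W relative to control WT, so replicate 3 was at the WT level here too. Hmgcs1, which makes the precursor of mevalonate, had 174, 152 and 221 TPM in treated R206W and 232, 221 and 222 TPM in control WT (-0.32, adjusted p 0.35). In the endothelium list 3 of 14 genes were lower at an unadjusted p under 0.05, among them Cldn5, the tight-junction claudin of the blood-brain barrier, with 59.9, 60.3 and 58.9 TPM in treated R206W and 74.2, 74.7 and 73.8 TPM in control WT (-0.31, adjusted p 0.209). Cldn5 was called without R206W control replicate 3 (adjusted p 0.0307).

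Cerebellar genes leaned lower, though none was called. Of 18 granule and unipolar brush cell genes 17 lay below 0 (50.3% of all genes did), and the median was -0.31. Of these 18, 9 were lower at an unadjusted p under 0.05 (6.23% of all genes). Gabra6, the GABA-A receptor subunit of granule cells, had 74.5, 99.6 and 71.1 TPM in treated R206W and 132, 155 and 101 TPM in control WT (-0.65, adjusted p 0.148). Summed over the list, treated R206W libraries held 1026, 1248 and 1065 TPM, R206W with the control ASO 981, 1105 and 947 TPM, WT with the Hnrnph2 ASO 1382, 1404 and 1249 TPM and control WT 1445, 1590 and 1192 TPM. The treated and control WT ranges overlapped, and both R206W groups were at the low end. All 14 tested Purkinje cell genes lay below 0, with a median of -0.22, and 2 were lower at an unadjusted p under 0.05 (6.23% of all genes). By library the list median relative to the control WT mean was -0.284, -0.05 and -0.235 in treated R206W. In control WT it was 0.043, 0.173 and -0.191, so the ranges overlapped. Cortical excitatory neuron genes had a median of 0.04, with 11 of 19 above 0. The part of tissue make-up in the gene values was not tested beyond a fit with the mean of the cerebellar list as a covariate, in which Hnrnph2 alone was called.

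RNA-binding proteins other than the H/F family gave no calls in the fit of 12 libraries. Of 26 other hnRNP and FET genes 0 were called, and the median was -0.06. Of the 26, 1 was higher (6.39% of all genes) and 3 lower (6.23%) at an unadjusted p under 0.05. Taf15, a FET protein that transportin also imports, had 35.4, 40.4 and 32.1 TPM in treated R206W and 47.4, 63.6 and 48.6 TPM in control WT (-0.55, adjusted p 0.146). Hnrnpc, which coats nascent transcripts, had 139, 130 and 135 TPM in treated R206W and 169, 163 and 163 TPM in control WT (-0.29, adjusted p 0.142). Both were called with all 35 libraries (adjusted p 0.0188 and 0.0106). Of 29 splicing regulators 2 were lower (6.23% of all genes) and 0 higher at an unadjusted p under 0.05, with a median of -0.05. Splicing itself was not analysed here, because isoforms are not resolved in the values used.

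Synaptic and channel genes had medians near 0 and gave no calls in the fit of 12 libraries. Of 28 postsynaptic scaffold genes 5 were higher (6.39% of all genes) and 0 lower (6.23%) at an unadjusted p under 0.05, with a median of 0.06. They included Camk2n1, an inhibitor of CaMKII, with 434, 462 and 429 TPM in treated R206W and 382, 348 and 401 TPM in control WT (0.23, adjusted p 0.304). Glutamate receptor genes had a median of -0.02, GABA receptor and inhibitory synapse genes -0.02, presynaptic active-zone genes 0.03 and sodium and potassium channel genes 0.05, with 0 called in each list. With all 35 libraries 1 of these genes was called, Gabra2, a GABA-A receptor subunit, which was lower. Genes of RNase H and ASO handling had a median of 0.04, with 1 of 15 higher at an unadjusted p under 0.05 (6.39% of all genes). That gene was Lamp2, a lysosomal membrane protein, with 61.9, 55.6 and 58.5 TPM in treated R206W and 53.9, 48.5 and 51.8 TPM in control WT (0.19, adjusted p 0.273). Cytosolic ribosomal protein genes lay slightly above 0, with 35 of 36 above 0, a median of 0.08 and 3 at an unadjusted p under 0.05.

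The same comparison in the P209L cohort at 3 weeks has no library in common with this one, so the difference between the 2 cohorts could be tested. limma called 0 of 16510 genes for the difference (0%), with a smallest adjusted p of 0.1. At an unadjusted p under 0.05, 428 genes had a greater value in the R206W cohort (2.59%) and 271 a lower one (1.64%). Ccn1 had the smallest p, since it ran in opposite directions: 6.69 and 8.55 TPM in treated P209L and 13.5, 8.96 and 15.4 TPM in control WT of that cohort (-0.64), beside 1.24 in the R206W cohort (difference 1.88, SE 0.31, adjusted p 0.1). Ier2, an early-response transcription factor, had 16.8 and 15.2 TPM in treated P209L and 29.5, 22.4 and 28.1 TPM in control WT of that cohort, against 32.6, 42.4 and 39.0 TPM in treated R206W and 24.9, 21.2 and 23.4 TPM in control WT (difference 1.38, SE 0.23, adjusted p 0.1). Gadd45b (0.96, adjusted p 0.351), a stress-induced growth-arrest gene, Lgi4 (0.48, adjusted p 0.36), a secreted protein of glia, and Msx1 (0.83, adjusted p 0.36), a homeobox factor, followed.

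Immediate early genes as a list lay on opposite sides of 0 in the 2 cohorts at 3 weeks. Their median was 0.35 in the R206W cohort and -0.38 in the P209L cohort, where 1 of 28 lay above 0. In the P209L cohort at 8 weeks the same comparison had a median of 0.23, with 25 of 28 above 0, the same side as R206W. For the difference between the cohorts at 3 weeks, 18 of the 28 had an unadjusted p under 0.05, 0 of them past the adjustment. Erythrocyte genes, which follow the blood left in the tissue, had a larger median difference of 1.16, with 2 of 5 genes at an unadjusted p under 0.05. The interferon list did not show such a contrast, with medians of 1.21 in the R206W cohort and 1.12 in the P209L cohort and 0 of 18 genes at an unadjusted p under 0.05 for the difference. The log2 fold change of Hnrnph2 was smaller in size in the R206W cohort, but this difference did not pass the adjustment. In the P209L cohort the gene had 12.8 and 15.0 TPM in treated P209L and 111, 102 and 115 TPM in control WT (-2.89, adjusted p 1.49e-07). The difference in log2 fold change was 0.67 (SE 0.14, 95% interval 0.38 to 0.96) (adjusted p 0.36 over all genes). The 2 P209L libraries limit the precision of every value in that cohort.

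**Figure D5:**
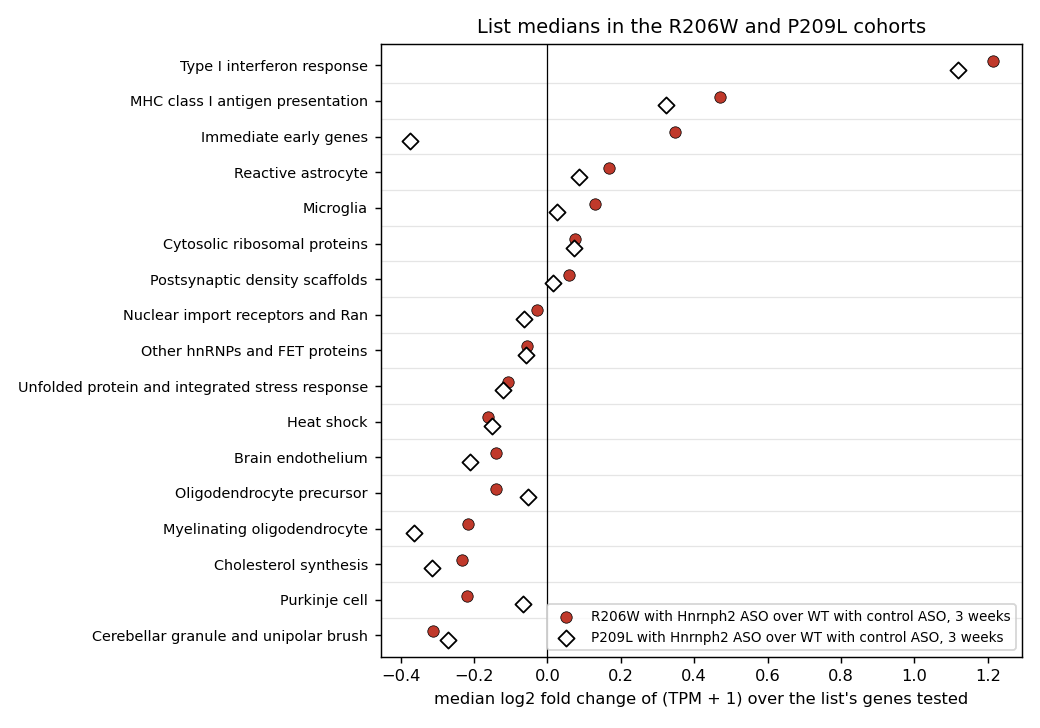
Median log2 fold change of (TPM + 1) over the tested genes of 17 lists (rows) for treated R206W over control WT (filled circles) and for treated P209L over control WT at 3 weeks (open diamonds), 2 cohorts with no library in common. The interferon list is furthest right in both, at 1.21 and 1.12, and the immediate early list lies on opposite sides of 0, at 0.35 and -0.38.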

How the data were processed

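The authors deposited 1 table of TPM values for the 35 libraries, made from stranded total-RNA libraries per the labels' protocols. The submitters' processing notes name RSEM, STAR 2.7.1a, Trim Galore, the mm10 build and GATK 4.0.4.0. The annotation, filters and strand setting are not given in the sources used here. TPM divides by transcript length and scales each library to the same total, so tools for counts could not be used and depth is unknown.

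Groups, ages and ASOs come from the labels, and the library numbers in the titles separate the WT mice of the R206W cohort from those of the P209L cohort. Rows whose mean over the 6 compared libraries reached 1 TPM entered a limma fit (version 3.58.1, R 4.3.3, trended eBayes, two-sided) of log2(TPM + 1) in the cohort's 12 libraries, with 1 mean per group. P-values were adjusted by Benjamini-Hochberg over all genes tested, and adjusted values under 0.05 count as calls. Fold changes on this scale understate the change of low genes. Single genes of the H/F family were also compared by exact two-sided permutation tests. The 23 libraries of age 3 weeks were fitted together to test differences between cohorts. The test was tried on simulated data. Named genes were the H/F family, genes called, the smallest p in each direction, genes called in both P209L cohorts, up to 4 members per list by smallest p and the 6 smallest p for the difference between cohorts; members outside this rule were chosen after their values were seen. The comparison and all 46 lists were chosen with earlier results of these data known.

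Alternatives were another pseudocount, other filters, rescaled TPM, omitting mitochondrially encoded genes, other sets of libraries, a replicate block, robust eBayes, library weights, a cerebellar covariate and leaving out libraries in turn. Coordinates are from RefSeq on mm10, in which 38416 symbols of the table were found. A total of 63 tested rows shared a symbol with another row and were kept apart. The values of 1 gene of the interferon list are not reported here; it is counted in the list.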

Additional observations from a re-analysis of the deposited data

How the results depend on the processing

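Hnrnph2 kept its direction and its call under every alternative tried, and its log2 fold change lay between -2.30 and -2.12 with any 1 library left out. The count of called genes was 3 (1 higher, 2 lower). It was 1 (0 higher, 1 lower) with no filter on low values and with the cerebellar covariate, 5 (3 higher) with rescaled TPM, 15 (12 higher) with only the 6 compared libraries and 84 (36 higher, 48 lower) with all 35. Lower calls numbered 1 at a mean of at least 5 TPM, and higher calls 2 with robust eBayes and with library weights. With any 1 library left out the count ranged over 1 to 64, higher calls over 0 to 40 and lower calls over 1 to 24; leaving out the libraries that are not compared was an alternative chosen after seeing the data. The counts without single libraries were 64 for R206W control replicate 3, 6 and 1 for its replicates 2 and 1, 1 for treated R206W replicate 2 and for WT with the Hnrnph2 ASO replicate 2, and 5 for control WT replicate 1. The calls of Gm29514 and Gm45716 both ended without any of 6 libraries: treated R206W replicate 1 or 2, control WT replicate 2 or 3, R206W control replicate 1 and WT with the Hnrnph2 ASO replicate 2. Only 2 of the 3 calls remained without treated R206W replicate 3 or control WT replicate 1. The same held without WT with the Hnrnph2 ASO replicate 1 or 3. Ccn1 was called with rescaled TPM, robust eBayes, library weights, the block, the 6 libraries, the 35 libraries and without R206W control replicate 2 or 3.

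The replicate numbers are shared between groups, and a fit with the number as a block called 238 genes (58 higher, 180 lower), among them 0 of the interferon list, 4 chaperone and stress genes, 4 microglial genes and 5 cerebellar genes. Deviations of same-numbered treated R206W and control WT libraries correlated at 0.163, 0.0939 and 0.184, so not every pair was over 0.1 and the numbers are not taken to pair the libraries. All 3 treated libraries correlated best with the WT library of their own number, which is a hint from the data and not from the design.

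Values near 0 that were not called changed sign. With library weights Ppfia3 was 0.022 and Ctnna2 -0.0067. With the cerebellar covariate Hnrnph3 was 0.16, Grsf1 -0.074, Ppfia3 0.10, Ilrun -0.063 and Ctnna2 -0.15. With any 1 library left out Grsf1 ranged over -0.025 to 0.084, Ppfia3 over -0.078 to 0.074, Ctnna2 over -0.074 to 0.053, Marf1 over -0.11 to 0.0085 and Hnrnph3 over -0.13 to 0.0060. The cause was not tested. For the difference from the P209L cohort the count was 0 under every other alternative and ranged over 0 to 6 with any 1 library left out: 1 (Ccn1) without control WT replicate 2 of the P209L cohort, 2 and 6 without treated P209L replicates 1 and 2, 2 without control WT replicate 1 and 1 without treated R206W replicate 1. The precision is limited by the number of libraries.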

Other observations

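Of 16 genes of immature neurons and their growth cones, 11 lay below 0 in treated R206W against control WT. The list's median log2 fold change was -0.11, and 0 were called. Lower at an unadjusted p under 0.05 were 4 (6.23% of all genes), and 1 was higher (6.39%). Nrep, a neuronal regeneration protein, had 266, 307 and 309 TPM in treated R206W and 448, 501 and 399 TPM in control WT (-0.61, adjusted p 0.142). Nrep was called without R206W control replicate 3 (adjusted p 0.0286) and with all 35 libraries (0.041). Gap43, a growth-cone protein, had 268, 268 and 282 TPM in treated R206W and 304, 305 and 324 TPM in control WT (-0.19, adjusted p 0.262). Among pericyte and smooth muscle genes 12 of 13 lay below 0 and 3 were lower at an unadjusted p under 0.05, with a median of -0.17. Rgs5, a regulator of G-protein signalling and a defining pericyte gene, had 44.4, 33.9 and 44.2 TPM in treated R206W and 58.8, 57.9 and 55.2 TPM in control WT (-0.49, adjusted p 0.151).

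Among 7 tested adrenergic receptors 6 lay above 0 and 2 were higher at an unadjusted p under 0.05 (6.39% of all genes). Adrb1, the beta-1 receptor, had 14.4, 14.4 and 12.6 TPM in treated R206W and 10.9, 8.34 and 11 TPM in control WT (0.42, adjusted p 0.21). Interneuron genes were split, with 3 higher and 3 lower of 15 at an unadjusted p under 0.05. Htr3a, a serotonin-gated channel of interneurons, had 6.18, 5.80 and 5.55 TPM in treated R206W and 4.05, 3.99 and 4.50 TPM in control WT (0.40, adjusted p 0.151), and Nos1, which makes nitric oxide, had 18.0, 17.3 and 17.4 TPM in treated R206W and 24.9, 23.6 and 19.5 TPM in control WT (-0.34, adjusted p 0.202).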
